A study of Homo sapiens with 6 samples.

Results

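Transcripts of 10 genes that carry fibroblast growth factor (FGF) signals or respond to them were examined in the human embryonic stem cell line H1. They were chosen by gene symbol: the ligand gene FGF2, the receptor genes FGFR1 to FGFR4, the feedback inhibitor genes DUSP6, SPRY2 and SPRY4, and the transcription factor genes ETV4 and ETV5. All 10 were found among the 23591 genes of the deposited table, and all 10 were among the 12937 genes tested. H1 cells with HEB knocked out according to the labels (HEB KO, 3 libraries) were set against wild type H1 cells (3 libraries). HEB is the E protein encoded by TCF12, a basic helix-loop-helix transcription factor that binds E-boxes. According to the labels, both groups grew on Matrigel in the defined medium TeSR-E8, which is known to contain FGF2 protein. Total RNA was depleted of ribosomal RNA and sequenced. The labels do not say whether the HEB KO libraries came from 1 clone or several, nor whether replicates were separate cultures, so the p-values speak for the spread among these libraries alone, and that spread may be technical.

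FGF2 binds FGF receptors, which are receptor tyrosine kinases, together with heparan sulfate on the cell surface. The receptors act through the adaptor FRS2, RAS and the kinases RAF and MEK on ERK, and human embryonic stem cells need this signal to stay undifferentiated in culture. Active ERK raises the transcripts of its own inhibitors, among them the ERK phosphatase DUSP6 and the Sprouty proteins, and of the ETS factors ETV4 and ETV5, so these transcripts are widely read as a sign of the signal. Values were taken as FPKM (fragments scaled by transcript length and library size), a unit inferred from the values, and levels of different genes are set side by side on this length-scaled unit. HEB KO library 1 kept a trend with transcript length in it, and wild type library 1 kept trends with transcript GC content and length. Fold changes are HEB KO over wild type on the log2(FPKM + 1) scale, with SE and Benjamini-Hochberg adjusted p from limma over all genes tested, and a gene counts as changed at an adjusted p under 0.05.

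TCF12 itself read 14.2, 6.69 and 8.28 FPKM in the HEB KO libraries, against 44.2, 55.7 and 51.0 FPKM in wild type (log2 fold change -2.31, SE 0.28, limma adjusted p = 0.0310, and 0.126 to 0.193 with any 1 library other than HEB KO library 1 left out). The libraries numbered 1 stood apart. A gap of at least 2-fold separated HEB KO library 1 from each of the other HEB KO libraries in 19.3% to 20.005% of the tested genes, and those libraries from one another in 1.21%. For wild type library 1 the share was 6.28% to 8.60%, and it was 1.11% between wild type libraries 2 and 3. In wild type library 1, transcripts of high GC content read low. The median log2 difference from wild type libraries 2 and 3 was -0.36 in the highest 25% by GC content and 0.23 in the lowest. By length it was 0.20 in the longest 25% and -0.10 in the shortest 25%. In HEB KO library 1, long transcripts read high and short ones low. The median log2 difference from HEB KO libraries 2 and 3 was 0.38 in the longest 25% of transcripts and -0.48 in the shortest 25%. By GC content it was -0.002 in the highest 25% and -0.003 in the lowest 25%. Summed over 13 stem cell markers the level was 2279 FPKM there, 3640 and 3869 FPKM in HEB KO libraries 2 and 3, and 3421 to 3966 FPKM in wild type, with no marker under 1 FPKM throughout. Single markers departed from the sum: NANOG, a core pluripotency factor gene, was lower in every HEB KO library, with 74.3, 122.7 and 95.1 FPKM against 198 to 208 FPKM in wild type (log2 fold change -1.08, limma adjusted p = 0.274). SALL4 was higher in every one, with 53.6, 60.3 and 64.4 FPKM against 37.4 to 43.6 FPKM (0.55, adjusted p = 0.422). Of the 13, 5 had a higher mean log2 level in HEB KO and 8 a lower one. Without both libraries numbered 1, DNMT3B rose and CDH1 fell (limma adjusted p = 0.0436 and 0.0444). Summed markers of trophoblast and amnion were 12.1, 3.09 and 5.96 FPKM in HEB KO libraries 1 to 3, against 3.29 to 4.49 FPKM in wild type. Within this sum TFAP2A read 3.90, 0 and 0.00981 FPKM and GATA3 2.47, 0.0354 and 0.0344 FPKM in HEB KO. In wild type both stayed under 0.061 FPKM. GATA2 went the other way, with 0.161, 0.0679 and 0.0333 FPKM against 1.06 to 1.74 FPKM (limma adjusted p = 0.140, and 0.0148 without both libraries numbered 1). It passed the filter through wild type alone. Summed markers of fibroblasts and mesenchyme were 387, 309 and 243 FPKM in HEB KO, against 249 to 304 FPKM in wild type. THY1 made up 167 to 220 FPKM of this in HEB KO and 187 to 253 FPKM in wild type. VIM, the vimentin gene, was higher in every HEB KO library, with 73.9, 125 and 61.9 FPKM against 27.1 to 39.7 FPKM in wild type (log2 fold change 1.27, limma adjusted p = 0.268). The collagen gene COL1A1 read 39.7, 3.21 and 1.74 FPKM in HEB KO, against 0.391 to 1.24 FPKM in wild type, and COL1A2 46.3, 7.97 and 9.37 FPKM in HEB KO, against 9.45 to 20.5 FPKM in wild type. These markers were picked from their values. Summed markers of neural ectoderm were 43.1 to 58.2 FPKM in HEB KO, against 43.1 to 53.7 FPKM in wild type. NES made up 32.6 to 49.5 FPKM of this in HEB KO and 36.1 to 43.5 FPKM in wild type. SIX3, which did not pass the filter, read 15.3, 0 and 0 FPKM in HEB KO, against 0.416 to 0.513 FPKM in wild type. Mesendoderm markers summed to 1.62 to 2.80 FPKM in HEB KO, against 3.47 to 8.80 FPKM in wild type. At least 5 markers of each of these other lists lay under 1 FPKM in every library, the neural genes PAX6 and SOX1 and the endoderm genes SOX17 and FOXA2 among them. ZIC1, a neural zinc finger gene that passed the filter on low values through wild type alone, was the marker gene that changed, and it fell to 0.174 ± 0.218 FPKM in HEB KO, against 4.42 ± 0.673 FPKM in wild type (SD, n = 3 each, limma adjusted p = 0.0133, and 0.0562 to 0.111 with any 1 library other than HEB KO library 1 left out). The neural marker SOX3 read 3.34, 8.08 and 8.15 FPKM in HEB KO, against 2.39 to 4.15 FPKM in wild type (log2 fold change 0.72, adjusted p = 0.521), and it rose in the fit without both libraries numbered 1 (1.21, adjusted p = 0.0226). The part of the length and GC trends and markers in later results was not tested, beyond fits that leave out libraries or trends.

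None of the 10 genes changed in the fit of all 6 libraries. At an unadjusted limma p under 0.05 there were 2 of the 10, FGFR4 higher and ETV5 lower, where 10.05% of all tested genes lay. FGF2 and FGFR4 were higher in every HEB KO library than in any wild type library, ETV5 was lower in every HEB KO library, and DUSP6, SPRY2 and SPRY4 were lower in HEB KO libraries 2 and 3 alone. Over all genes tested, 0.240% changed, 7.72% were higher in all HEB KO libraries and 11.8% were lower in all of them. The lower level in both HEB KO libraries 2 and 3 than in any wild type library held for 4 of the 10 genes and for 25.2% of all genes tested, so it was common in these data. Without HEB KO library 1 again none of the 10 genes passed, where 0.587% of all genes tested did. Without both libraries numbered 1, DUSP6 and ETV5 fell, where 3.71% of all genes tested changed and 2.23% fell. With libraries weighted by their agreement, FGFR4 rose and DUSP6, SPRY2 and ETV5 fell, where 14.5% of all genes tested changed. In these bulk libraries, fewer cells that carry a transcript and less of it per cell cannot be told apart.

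**Figure D1:**
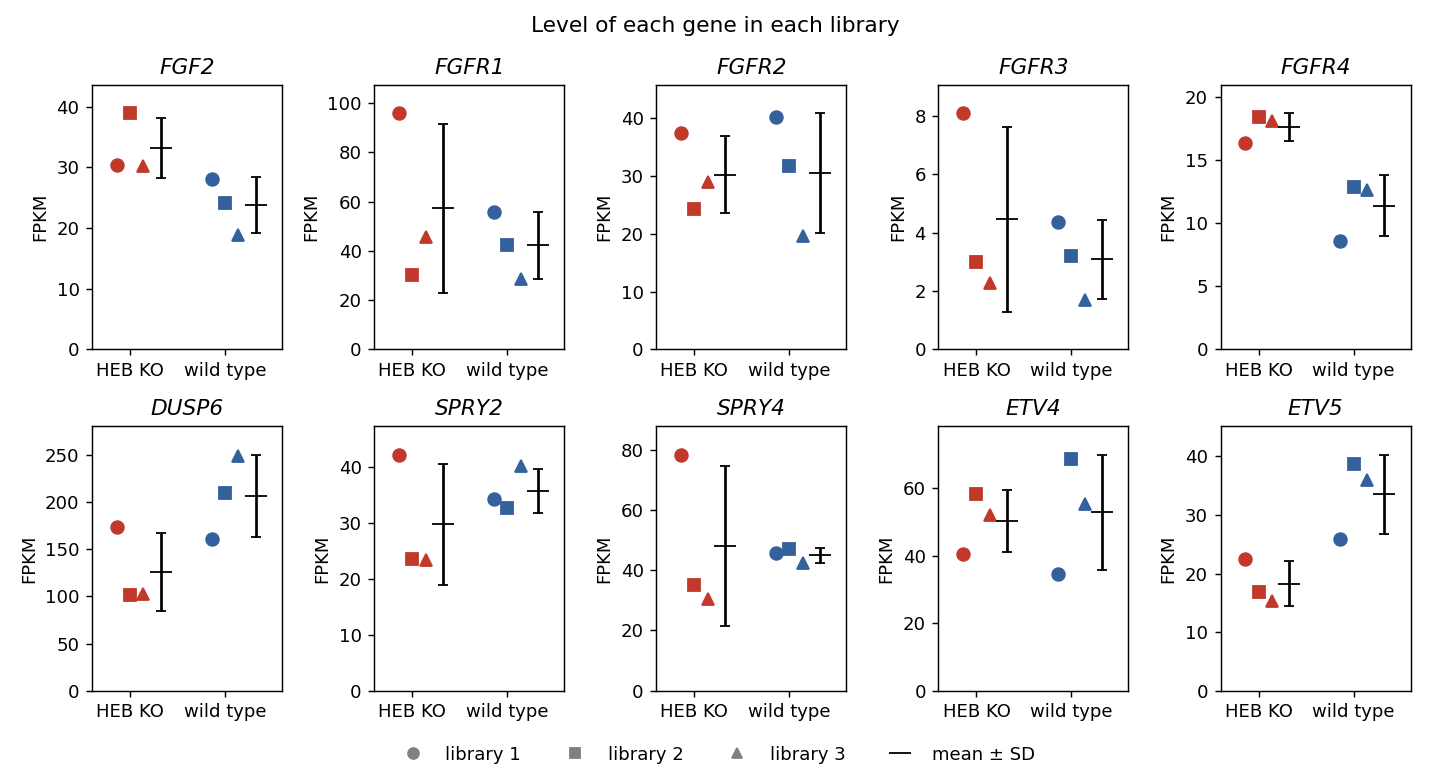
FPKM of each of the 10 genes in each library, with the 3 HEB KO libraries left of the 3 wild type libraries, symbols for the library number and the mean ± SD beside them. FGF2 and FGFR4 lie higher and ETV5 lower in all HEB KO libraries, while HEB KO library 1 lies far above HEB KO libraries 2 and 3 for FGFR1, FGFR3 and SPRY4.

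FGF2 encodes the ligand that such cells also receive from the medium. It read 30.5, 38.9 and 30.2 FPKM in HEB KO, against 28.1, 24.2 and 18.9 FPKM in wild type. The groups did not overlap, but HEB KO library 3 and wild type library 1 lay close together. It averaged 33.2 ± 4.97 FPKM in HEB KO and 23.7 ± 4.62 FPKM in wild type (SD, n = 3 each), a ratio of 1.40. The log2 fold change was 0.47 (SE 0.23, limma adjusted p = 0.531), and 0.65 without both libraries numbered 1 (adjusted p = 0.101). NUDT6, a Nudix hydrolase gene, overlaps FGF2 on the opposite strand, and the use of strand in the counting is not given, so reads of either gene could have been counted for the other. NUDT6 averaged 23.5 ± 1.14 FPKM in HEB KO and 19.0 ± 3.60 FPKM in wild type (adjusted p = 0.643). The ratio of FGF2 to NUDT6 was 1.27, 1.59 and 1.36 in HEB KO, against 1.24, 1.31 and 1.21 in wild type, and these ranges overlapped.

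FGFR1, the receptor gene of the highest mean level in both groups, read 95.9, 30.1 and 45.7 FPKM in HEB KO and 55.7, 42.5 and 28.6 FPKM in wild type. Its highest value was in HEB KO library 1, at 2.53 times the mean of HEB KO libraries 2 and 3. FGFR2 read 37.4, 24.3 and 28.97 FPKM in HEB KO, against 40.2, 31.8 and 19.7 FPKM in wild type. The groups overlapped for both genes. FGFR3 was the lowest of the 10 genes in each group, with 8.09, 3.01 and 2.26 FPKM in HEB KO and 4.35, 3.21 and 1.69 FPKM in wild type. Its HEB KO library 1 was 3.07 times the mean of libraries 2 and 3. None of FGFR1, FGFR2 and FGFR3 passed the test, with log2 differences of 0.31 (SE 0.44), 0.02 (SE 0.30) and 0.33 (SE 0.42) and limma adjusted p of 0.829, 0.990 and 0.816. Without HEB KO library 1 these took the other sign, at -0.13, -0.14 and -0.12.

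FGFR4, the receptor for FGF19 among other ligands, read 16.3, 18.4 and 18.1 FPKM in HEB KO and 8.58, 12.9 and 12.6 FPKM in wild type. Every HEB KO value lay above every wild type value, HEB KO library 1 included. The mean was 17.6 ± 1.10 FPKM in HEB KO and 11.4 ± 2.41 FPKM in wild type (SD, n = 3 each), 1.55-fold higher in HEB KO. The log2 fold change was 0.61 (SE 0.22, limma unadjusted p = 0.0228, adjusted p = 0.409), 0.66 without HEB KO library 1 (adjusted p = 0.207) and 0.48 without both libraries numbered 1 (adjusted p = 0.103). With the trend on transcript GC content and length removed from each library, an alternative added after the data were seen, it was 0.19 (adjusted p = 0.822). In that fit FGF2 was at 0.66, DUSP6 at -0.62 and ETV5 at -0.75 (adjusted p = 0.405, 0.638 and 0.407). FGFR4 has the highest transcript GC content of the 10 genes, 63.6%. The 25% of tested genes with the highest GC content had a median log2 fold change of 0.30, and the 25% with the lowest -0.20. Wild type library 1 had the lowest FGFR4 value. Its median log2 difference from wild type libraries 2 and 3 was -0.36 in the former genes and 0.23 in the latter.

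Because HEB binds E-boxes, the 250 bases before the annotated start were searched for the E-box CANNTG, which reads the same way on both strands as a pattern, and for the ETS core GGAAGT on both strands (its reverse complement is ACTTCC). The search used RefSeq promoter windows on the GRCh38.p14 build, not hg19, for 7 of the 10 genes. No window of FGFR1, ETV4 or ETV5 was searched. A CANNTG match stood in 61.8% of all 35114 windows and a GGAAGT match in 19.5%. FGFR4 is shown as the receptor gene whose groups did not overlap, in its most upstream window, chr5:177086665-177086914 on the plus strand, with the matched bases in capitals. It held 1 CANNTG match, CAGGTG, and no GGAAGT match:
FGFR4: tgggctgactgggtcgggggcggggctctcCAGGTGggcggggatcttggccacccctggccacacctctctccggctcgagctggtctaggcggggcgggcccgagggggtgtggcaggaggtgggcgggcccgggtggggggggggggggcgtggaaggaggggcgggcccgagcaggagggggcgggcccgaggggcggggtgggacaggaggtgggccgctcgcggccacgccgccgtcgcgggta
This match lay 220 to 215 bases before the start site. The other FGFR4 window held 2 CANNTG matches and 1 GGAAGT match. The form CAGGTG, read on either strand, stood in 17.5% of all windows. A match is a description of the letters and no sign of binding.

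Shares of the summed FGFR1 to FGFR4 level do not depend on the scaling of a library. They can still carry its length and GC trends, whose part was not tested. FGFR1 has a transcript of 6216 bases and 51.3% GC, and FGFR4 one of 3122 bases and 63.6% GC. As a share, FGFR1 held 60.8%, 39.7% and 48.1% in HEB KO, against 51.2%, 47.0% and 45.7% in wild type. FGFR2 held 23.7%, 32.1% and 30.5% in HEB KO, against 36.9%, 35.2% and 31.4% in wild type. FGFR1 and FGFR2 thus made up most of the receptor transcripts in each of the 6 libraries. FGFR4 held 10.4%, 24.2% and 19.0% in HEB KO, against 7.88%, 14.3% and 20.2% in wild type. FGFR3 held 2.38% to 5.13% in HEB KO, against 2.69% to 3.996% in wild type. The groups overlapped in the share of each of the 4 genes. The share of FGFR2 differed by -5.74 percentage points (two-sided exact permutation p = 0.2, adjusted over the 4 receptors 0.8), and 0.1 is the smallest p that 3 libraries against 3 can give. The exact permutation p was 0.5 for FGFR4 and 0.8 for FGFR1 and FGFR3 (adjusted 0.8 each). Without both libraries numbered 1 the difference in the FGFR2 share was -2.00 percentage points. The summed level itself was 158, 75.8 and 95.0 FPKM in HEB KO, against 109, 90.4 and 62.6 FPKM in wild type.

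**Figure D2:**
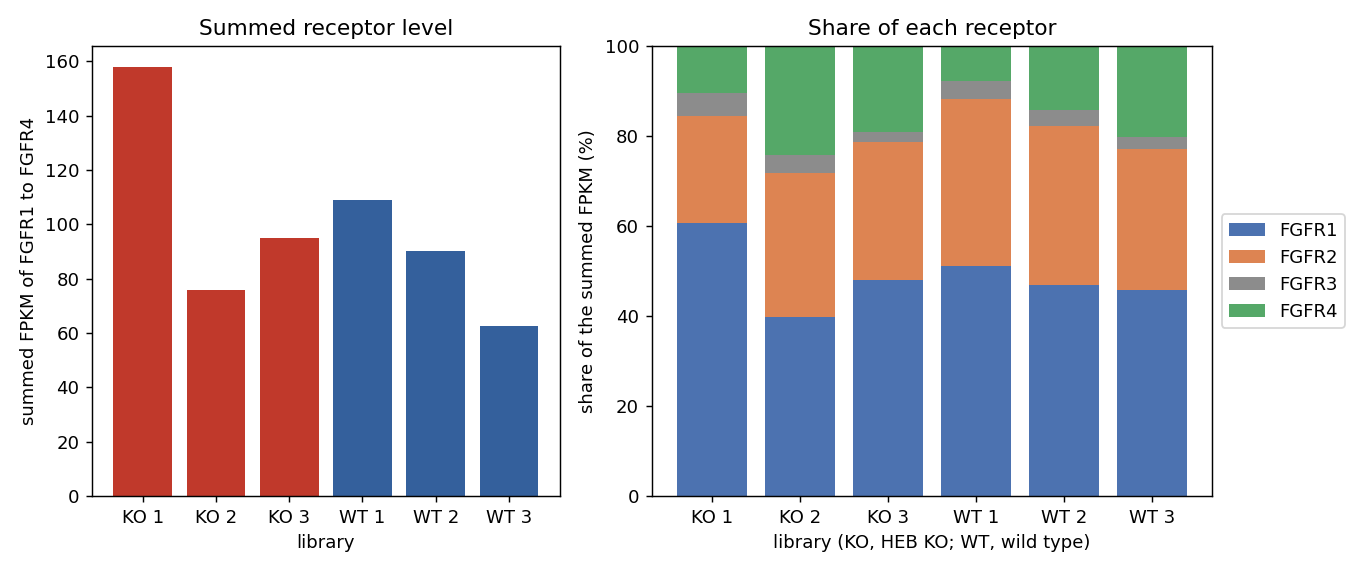
Left, summed FPKM of FGFR1 to FGFR4 in each library, and right, the share of each receptor gene in that sum in percent, HEB KO libraries first. FGFR1 holds 39.7% to 60.8% in HEB KO and 45.7% to 51.2% in wild type, and HEB KO library 1 has the highest sum, 158 FPKM.

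DUSP6, the phosphatase that inactivates ERK in the cytoplasm, was the most abundant of the 10 transcripts in both groups. It read 173, 102 and 103 FPKM in HEB KO, against 161, 209 and 249 FPKM in wild type. HEB KO libraries 2 and 3 lay close together below all wild type libraries, whereas HEB KO library 1 lay above wild type library 1. On average DUSP6 was at 126 ± 41.0 FPKM in HEB KO and 207 ± 44.0 FPKM in wild type (SD, n = 3 each), 1.64-fold lower in HEB KO. The log2 fold change was -0.73 (SE 0.32, limma unadjusted p = 0.0520, adjusted p = 0.503), -0.99 without HEB KO library 1 (adjusted p = 0.125) and -1.15 without both libraries numbered 1 (SE 0.18, adjusted p = 0.0219). DUSP6 passed the threshold in that last fit of 2 libraries against 2, where 2.23% of all genes tested fell.

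SPRY2, which encodes an inhibitor of receptor tyrosine kinase signals to RAS and ERK, read 42.2, 23.5 and 23.4 FPKM in HEB KO and 34.3, 32.6 and 40.1 FPKM in wild type. SPRY4, of the same family, read 78.3, 35.2 and 30.3 FPKM in HEB KO and 45.7, 46.9 and 42.2 FPKM in wild type. For both, HEB KO library 1 was above every wild type library and HEB KO libraries 2 and 3 were below every one. The wild type libraries were close to each other, at 44.9 ± 2.41 FPKM for SPRY4 (SD, n = 3). Averaged over all libraries SPRY2 was 29.7 ± 10.8 FPKM in HEB KO and 35.7 ± 3.96 FPKM in wild type (log2 fold change -0.30, SE 0.27, limma adjusted p = 0.732). SPRY4 averaged 48.0 ± 26.4 FPKM in HEB KO, with a log2 difference from wild type of -0.03 (SE 0.35, adjusted p = 0.985). Without HEB KO library 1 the log2 fold changes were -0.58 and -0.45 (adjusted p = 0.176 and 0.229), and without both libraries numbered 1 they were -0.60 and -0.43 (adjusted p = 0.0837 and 0.154). A single library thus decided the value of SPRY4, which also took the other sign with quantile normalization and with median ratio scaling. Within a library, the ratio of DUSP6 to SPRY2 was 4.10, 4.32 and 4.39 in HEB KO, against 4.70, 6.42 and 6.21 in wild type, and that of DUSP6 to SPRY4 was 2.21, 2.89 and 3.39 in HEB KO, against 3.53, 4.47 and 5.90 in wild type. In both ratios every HEB KO library, library 1 included, thus lay below every wild type library. For DUSP6 to ETV5 the groups overlapped, at 7.69, 6.03 and 6.73 in HEB KO and 6.25, 5.40 and 6.93 in wild type. They also overlapped in the ratios of SPRY4 to SPRY2, FGFR4 to FGFR2 and FGFR4 to FGFR1. The 8 ratios computed were not tested.

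The promoter windows of DUSP6 and SPRY2 are shown because both transcripts were lower in HEB KO libraries 2 and 3. That of DUSP6, chr12:89352502-89352751 on the minus strand, held no CANNTG and no GGAAGT match, and that of SPRY2, chr13:80341127-80341376 on the minus strand and the most upstream of its 3, held 2 CANNTG matches, in capitals:
DUSP6: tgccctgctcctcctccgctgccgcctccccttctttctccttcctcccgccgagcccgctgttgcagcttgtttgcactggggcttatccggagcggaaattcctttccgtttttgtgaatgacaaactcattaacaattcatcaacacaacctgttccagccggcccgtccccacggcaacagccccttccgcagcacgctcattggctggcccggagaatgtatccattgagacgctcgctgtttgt
SPRY2: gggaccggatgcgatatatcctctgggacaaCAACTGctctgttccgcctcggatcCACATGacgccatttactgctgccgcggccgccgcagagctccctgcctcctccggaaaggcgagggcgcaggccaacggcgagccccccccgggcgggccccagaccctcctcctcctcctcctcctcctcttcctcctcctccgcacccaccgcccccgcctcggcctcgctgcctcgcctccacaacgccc
The SPRY2 matches began 219 and 194 bases before the start site. The other SPRY2 windows held 1 GGAAGT match. The SPRY4, FGF2 and FGFR3 windows held neither motif. The 5 windows of FGFR2, whose groups overlapped, held 5 CANNTG matches, 1 of them of the CAGGTG form, and 2 GGAAGT matches. A window without a match says only that these letters are not in it.

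ETV5, a PEA3 family ETS transcription factor gene induced by FGF signals, read 22.6, 16.9 and 15.3 FPKM in HEB KO and 25.8, 38.8 and 35.9 FPKM in wild type. All HEB KO values lay below all wild type values, though HEB KO library 1 and wild type library 1 were close. ETV5 averaged 18.2 ± 3.83 FPKM in HEB KO and 33.5 ± 6.82 FPKM in wild type (SD, n = 3 each), 1.84-fold lower in HEB KO. The log2 fold change was -0.84 (SE 0.25, limma unadjusted p = 0.00910, adjusted p = 0.348), -0.997 without HEB KO library 1 (adjusted p = 0.110) and -1.17 without both libraries numbered 1 (SE 0.15, adjusted p = 0.0113). It was lower in each of the 18 other settings, between -1.17 and -0.71.

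ETV4, a gene of the same family, read 40.5, 58.5 and 51.97 FPKM in HEB KO and 34.7, 68.7 and 55.2 FPKM in wild type, and the groups overlapped. It was low in library 1 of each group. The log2 fold change was -0.03 (SE 0.30, limma adjusted p = 0.982), and its sign turned with the scaling of the libraries. The ratio of ETV4 to ETV5 within a library was 1.79, 3.46 and 3.40 in HEB KO, against 1.34, 1.77 and 1.54 in wild type. HEB KO library 1 and wild type library 2 were nearly level in it, and HEB KO libraries 2 and 3 were far above all others. DHX8, an RNA helicase gene whose annotated span overlaps ETV4, averaged 17.3 ± 2.96 FPKM in HEB KO and 18.7 ± 0.796 FPKM in wild type (adjusted p = 0.872). The third PEA3 family gene, ETV1, averaged 17.5 ± 3.37 FPKM in HEB KO and 24.1 ± 1.70 FPKM in wild type (log2 fold change -0.46, adjusted p = 0.522).

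**Figure D3:**
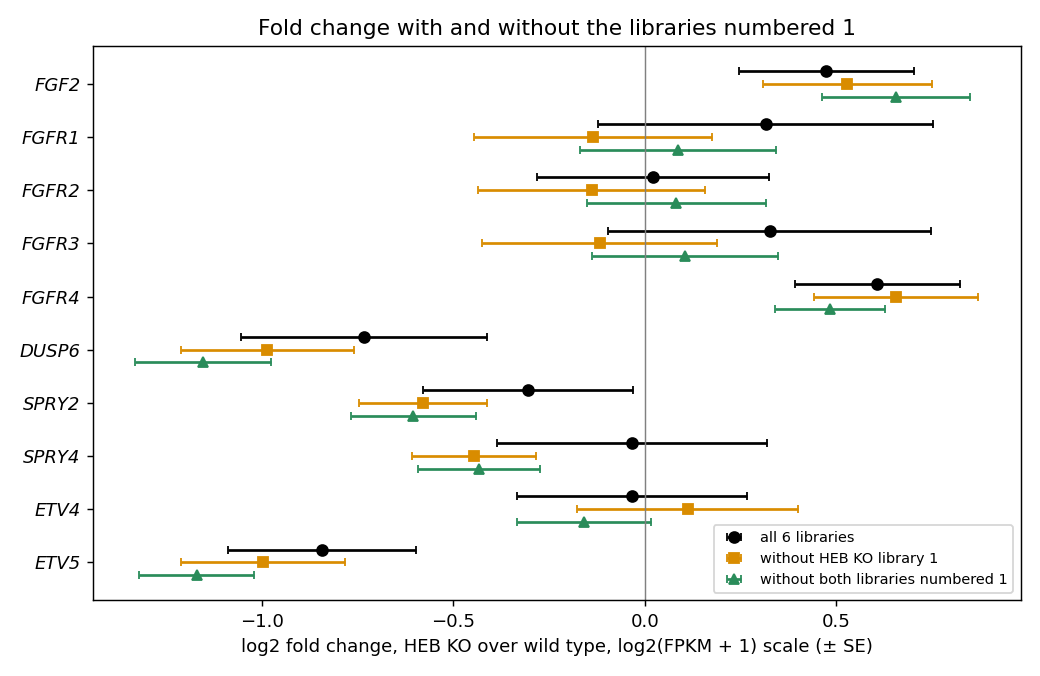
Log2 fold change (HEB KO over wild type, log2(FPKM + 1) scale, ± SE) of the 10 genes in the fits of all 6 libraries, without HEB KO library 1 and without both libraries numbered 1. DUSP6 runs from -0.73 to -1.15 and ETV5 from -0.84 to -1.17 across these fits, while FGFR1, FGFR2, FGFR3 and ETV4 change sign.

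Among the 10 genes, the order of levels was partly shared. In HEB KO, DUSP6 (126 FPKM) was followed by FGFR1, ETV4, SPRY4, FGF2, FGFR2, SPRY2, ETV5, FGFR4 and FGFR3 (4.45 FPKM). Neighbours in this order overlapped between libraries except at 3 steps, below DUSP6, below SPRY2 and below FGFR4. In wild type the order was DUSP6 (207 FPKM), ETV4, SPRY4, FGFR1, SPRY2, ETV5, FGFR2, FGF2, FGFR4 and FGFR3 (3.08 FPKM), with steps beyond the overlap below DUSP6, FGF2 and FGFR4. HEB KO library 1 was at least 1.5 times the mean of HEB KO libraries 2 and 3 in 5 of the 10 genes (FGFR1, FGFR3, DUSP6, SPRY2 and SPRY4), where 25.8% of all genes tested were. In no gene of the 10 was it lower by as much, where 24.97% of all genes tested were. These 5 genes had transcripts of 2708 to 6216 bases, and the others of the 10 had transcripts of 2429 (ETV4) to 6775 bases (FGF2).

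The other inhibitors of the RAS-ERK cascade numbered 22, of which 19 could be tested and none changed. At an unadjusted limma p under 0.05, 1 was higher and 1 lower. Their median log2 fold change was -0.08, against -0.04 for all genes tested. SPRY1, the third Sprouty gene measured, read 34.5, 17.1 and 14.7 FPKM in HEB KO and 29.4, 32.015 and 28.03 FPKM in wild type. SPRED1, a Sprouty-related inhibitor that works with neurofibromin on RAS, read 24.6, 15.3 and 15.5 FPKM in HEB KO, against 20.8, 22.2 and 21.5 FPKM in wild type. SPRED2, from the same family, read 10.7, 3.74 and 3.48 FPKM in HEB KO, against 5.11, 7.01 and 5.0004 FPKM in wild type. These had the same order as SPRY2 and SPRY4, with HEB KO library 1 above and HEB KO libraries 2 and 3 below all wild type libraries. The share of all genes tested with this order was not computed, and genes of other lists had it too. SOS1 read 14.2, 6.18 and 7.05 FPKM in HEB KO, against 7.46 to 9.78 FPKM in wild type. IGF1R read 60.1, 10.2 and 9.02 FPKM in HEB KO, against 11.3 to 26.8 FPKM in wild type. SPRED1, SPRED2, SOS1 and IGF1R were named after their values were seen. In 9 of the 19 genes HEB KO libraries 2 and 3 both lay below every wild type library, where 25.2% of all genes tested did. Without both libraries numbered 1, SPRY1 passed the threshold (log2 difference -0.88, limma adjusted p = 0.0335), and SPRED1 and SPRED2 did not (adjusted p = 0.105 and 0.117).

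DUSP5, a nuclear ERK phosphatase gene, read 17.6, 30.8 and 26.5 FPKM in HEB KO and 40.2, 35.9 and 54.6 FPKM in wild type, with no overlap and the lowest value in HEB KO library 1 (log2 fold change -0.79, limma adjusted p = 0.403). IL17RD, also known as Sef, a membrane inhibitor of FGF signals, read 57.03, 14.1 and 14.01 FPKM in HEB KO, highest in library 1, against 16.2 to 31.98 FPKM in wild type (adjusted p = 0.959). PEBP1, the RAF kinase inhibitor protein gene, averaged 230 ± 114 FPKM in HEB KO and 271 ± 44.4 FPKM in wild type (adjusted p = 0.797).

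**Figure D4:**
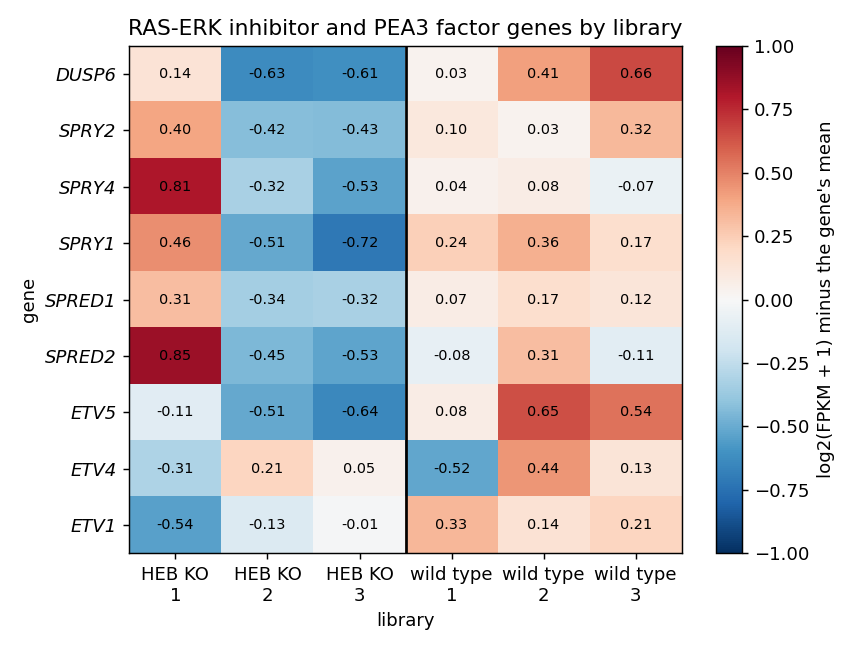
Each cell gives log2(FPKM + 1) minus the mean of that gene over the 6 libraries, for inhibitor genes and PEA3 family factor genes, with HEB KO libraries left and wild type libraries right. DUSP6, the Sprouty and SPRED genes and ETV5 are negative in HEB KO libraries 2 and 3, and all of these but ETV5 are positive in HEB KO library 1. SPRED1 and SPRED2 were picked from their values. The inhibitor genes DUSP5 and PEBP1, which read lowest in HEB KO library 1, are not shown, nor is IL17RD, which read highest there.

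Of 21 other FGF ligand genes 7 were tested and none changed, with a median log2 fold change of -0.32. FGF8, a ligand of early mesendoderm named after its values were seen, came nearest: it read 0.932, 0.249 and 0.334 FPKM in HEB KO and 4.73, 3.48 and 3.28 FPKM in wild type (log2 fold change -1.70, SE 0.25, limma adjusted p = 0.0548, and 0.0205 without HEB KO library 1). It passed the filter on low values through wild type alone. FGF19, which acts through FGFR4 with a Klotho co-receptor, read 5.15, 7.40 and 9.70 FPKM in HEB KO and 16.7, 15.3 and 13.5 FPKM in wild type, with no overlap (log2 fold change -0.97, adjusted p = 0.274). Of the non-secreted family members, FGF13 averaged 18.0 FPKM in HEB KO and 19.1 FPKM in wild type (adjusted p = 0.880), FGF11 8.06 FPKM in HEB KO and 9.45 FPKM in wild type (0.783), and FGF12 1.86 FPKM in HEB KO and 2.59 FPKM in wild type (0.635).

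None of 22 tested co-receptor, heparan sulfate, binding protein and FRS adaptor genes (FRS2 and FRS3) changed, of 29 listed, and their median log2 fold change was 0.20. GPC6, a glypican gene, read 17.0, 9.73 and 8.21 FPKM in HEB KO and 30.4, 37.8 and 29.4 FPKM in wild type (log2 fold change -1.46, SE 0.28, limma adjusted p = 0.153, and 0.0205 without HEB KO library 1). HS6ST1, whose product adds the 6-O-sulfate groups of heparan sulfate that FGF signalling uses, read 21.2, 23.5 and 24.1 FPKM in HEB KO, against 11.6, 12.8 and 12.3 FPKM in wild type (log2 fold change 0.85, SE 0.18, adjusted p = 0.185, and 0.0267 without both libraries numbered 1). With the GC and length trend removed from each library, the log2 fold change of HS6ST1 was 0.53 (adjusted p = 0.433). GPC6 and HS6ST1 were named after their values were seen. GPC3 read 167, 32.5 and 35.1 FPKM in HEB KO, highest in library 1, against 14.9 to 59.5 FPKM in wild type (log2 fold change 1.09, adjusted p = 0.637). It was 0.33 without HEB KO library 1 (adjusted p = 0.750), and 0.90 without both libraries numbered 1, where GPC3 passed narrowly (adjusted p = 0.0499). The glypican gene GPC4 averaged 43.8 ± 28.3 FPKM in HEB KO and 51.1 ± 19.1 FPKM in wild type (adjusted p = 0.836). The syndecan gene SDC2 averaged 39.6 ± 3.11 FPKM in HEB KO and 38.7 ± 19.1 FPKM in wild type (adjusted p = 0.914), and SDC4 34.6 ± 6.08 FPKM in HEB KO and 46.1 ± 12.2 FPKM in wild type (0.638).

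Of the 25 other adaptor and RAS-ERK cascade genes 24 were tested and none changed, with a median log2 fold change of -0.17. The adaptor gene SHC1 averaged 92.5 ± 5.56 FPKM in HEB KO and 76.0 ± 14.9 FPKM in wild type, and PTPN11, the SHP2 phosphatase gene, 45.4 ± 9.83 FPKM in HEB KO and 52.0 ± 3.49 FPKM in wild type. NRAS averaged 42.9 ± 10.1 FPKM in HEB KO and 50.7 ± 6.28 FPKM in wild type. Their limma adjusted p lay between 0.705 and 0.786, and in PTPN11 and NRAS the lowest value of the 6 libraries was that of HEB KO library 1.

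Of 22 other ERK-responsive transcripts and ETS partners 19 were tested and none changed, with a median log2 fold change of -0.24. IER3, an immediate-early gene named after its values were seen, read 11.5, 9.21 and 6.32 FPKM in HEB KO and 20.4, 32.9 and 28.1 FPKM in wild type (log2 fold change -1.50, SE 0.27, limma adjusted p = 0.137, and 0.00625 without both libraries numbered 1). JUN, named in the same way, read 6.69, 2.51 and 2.39 FPKM in HEB KO and 3.54, 9.58 and 6.53 FPKM in wild type. The groups overlapped for JUN (log2 fold change -0.66, adjusted p = 0.623, and 0.0180 without both libraries numbered 1). The cyclin D1 gene CCND1 averaged 55.2 ± 5.11 FPKM in HEB KO and 63.9 ± 7.54 FPKM in wild type (adjusted p = 0.773). The immediate-early gene IER2 averaged 33.5 ± 6.22 FPKM in HEB KO and 36.3 ± 6.45 FPKM in wild type (adjusted p = 0.894), and MYC 26.8 ± 11.6 FPKM in HEB KO and 28.9 ± 3.82 FPKM in wild type (0.868). HEB KO libraries 2 and 3 both lay below every wild type library in 9 of these 19 genes, against 25.2% of all genes tested, and SPRED1 is among the 9 and counted in both lists. The same held for 3 of the 7 tested genes of other FGF ligands and 4 of the 22 tested co-receptor and related genes. It held for 8 of the 24 tested adaptor and cascade genes and 5 of the 16 tested genes of other receptor tyrosine kinases.

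None of 16 tested genes of other receptor tyrosine kinases changed, and their median log2 fold change was -0.04. ERBB2 read 75.8, 52.9 and 42.0 FPKM in HEB KO and 41.1, 29.9 and 20.7 FPKM in wild type, with no overlap (log2 fold change 0.88, SE 0.32, limma adjusted p = 0.416). The ephrin receptor gene EPHA1 averaged 52.9 ± 10.03 FPKM in HEB KO and 58.5 ± 5.99 FPKM in wild type (adjusted p = 0.842), and EPHB4 34.0 ± 5.25 FPKM in HEB KO and 26.8 ± 2.44 FPKM in wild type (0.632). TYRO3 averaged 31.5 ± 9.71 FPKM in HEB KO and 27.3 ± 2.27 FPKM in wild type (adjusted p = 0.860).

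**Figure D5:**
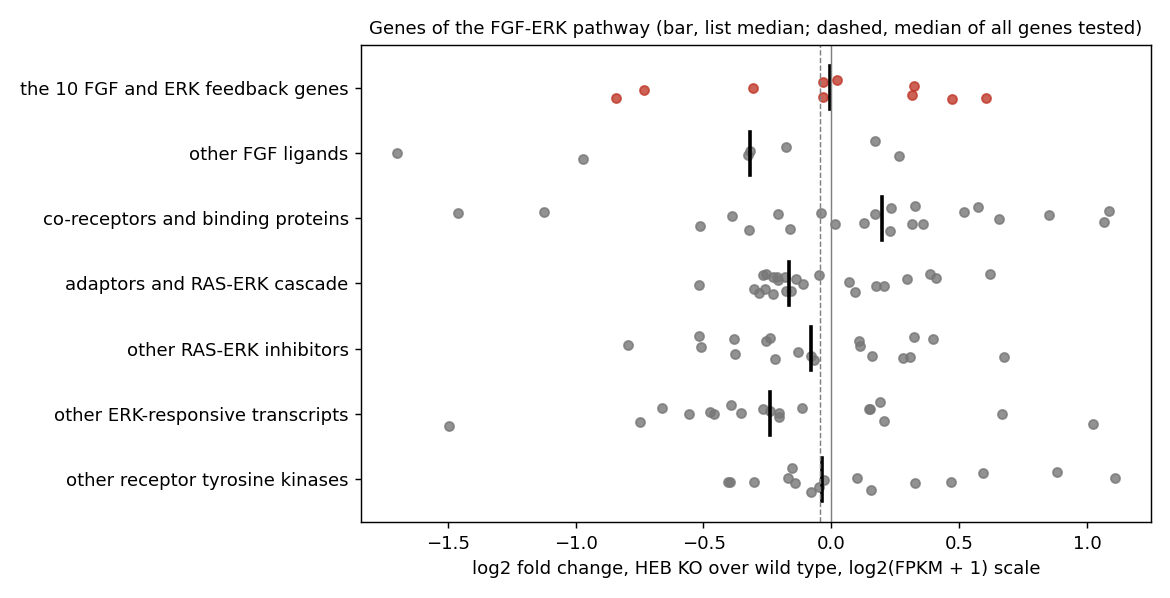
Log2 fold change (HEB KO over wild type, log2(FPKM + 1) scale) of each tested gene by list, with the list median as a bar and the median of all genes tested, -0.04, as a dashed line. The 10 genes run from -0.84 (ETV5) to 0.61 (FGFR4), and the lowest value shown is that of FGF8, -1.70.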

How the data were processed

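The labels gave each library's group and number. The deposited table holds a value for each gene symbol in each library. No label states its unit. It was taken as FPKM made by the authors, since its values are not whole, sum to unequal totals and reach their highest, 81160, in a gene whose transcript has at most 300 bases. Per the submitters' processing notes, TopHat2 2.1.0, Bowtie2 2.2.6 and hg19 were used. How genes were quantified, with which annotation, strand setting or scaling, is not given in the sources here. FPKM holds no counts, so depth is unknown and no count model was fitted. Summed FPKM was 440703 in HEB KO library 1 and 635114 to 714875 in the others. Of 23619 rows, 28 with a date in place of a symbol (at most 0.1105% of a library's FPKM) were left out.

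The test took genes that reached 1 FPKM in 3 or more of 6 libraries and was made with limma 3.58.1 in R 4.3.3 (intensity trend, log2(FPKM + 1), Benjamini-Hochberg at 0.05). Low genes' fold changes are understated on this scale. The receptor shares were compared by exact permutation with scipy 1.17.1. The longest GENCODE 29 transcript of each symbol gave length and GC content, for 97.411% of the genes tested. The members and gene lists were chosen with earlier results of these data known. The genes named were the 10, TCF12, genes in the table that overlap them, and from each pathway list those past the threshold and up to 4 others of the highest mean, of which 1 is not reported here. Of the marker lists, summed levels, ZIC1 and a few others are given. Any other gene was picked from its values. The alternatives were pseudocount, filter, scaling, trend, library weights, replicate block and libraries left out, and 2 with the GC and length trend removed, added later. The deviations of same-numbered libraries correlated at 0.262, -0.0399 and 0.269.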

Additional observations from a re-analysis of the deposited data

How the results depend on the processing

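Of all genes tested 31 changed, against 1874 under library weights, 480 when both libraries numbered 1 were dropped, 18 at a filter of 5 FPKM, 11 unfiltered, 158 with the GC and length trend removed and HEB KO library 1 left out, and 7 to 76 without single libraries (76 without HEB KO library 1, 7 to 10 without any other). None of the 10 genes changed, in the fit of all libraries or without any single one, but 4 passed with library weights (FGFR4 at 0.51, DUSP6 at -1.04, SPRY2 at -0.52 and ETV5 at -1.16, limma adjusted p = 0.0300, 0.00540, 0.0369 and 0.00158) where 14.5% of all genes did, and 2 without both libraries numbered 1. Under a replicate block 10 genes changed, none of them a member, and TCF12 had an adjusted p of 0.0957. Only some same-numbered libraries deviated together, so the numbers were not taken to pair them. TCF12 also missed the threshold unfiltered (0.106) and when 1 library other than HEB KO library 1 was dropped (0.126 to 0.193), and so did ZIC1 (0.0570, and 0.0562 to 0.111). The difference in the FGFR2 share was -2.00 without both libraries numbered 1. The edgeR quasi-likelihood fit, planned only if the table held counts, was left out, and the counting error of low values cannot be given. The causes of these shifts were not tested.

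Log2 fold changes that took the other sign were all of genes that had not passed. With quantile normalization they were 0.17 for SPRY4, 0.11 for ETV4, 0.046 for IER2 and 0.010 for EPHA1, and with median ratio scaling 0.020 for SPRY4 and 0.019 for ETV4. With library weights they were -0.046 for FGFR2, -0.10 for FGFR3, 0.017 for DHX8, 0.25 for FGF13, 0.11 for FGF11, 0.0017 for PTPN11, 0.036 for NRAS, 0.18 for PEBP1, -0.29 for IL17RD, 0.18 for MYC and -0.017 for TYRO3. Without both libraries numbered 1 they were 0.0073 for DHX8, 0.22 for FGF13, 0.0098 for PTPN11, 0.041 for PEBP1, -0.24 for IL17RD, 0.25 for MYC and -0.049 for TYRO3. With the GC and length trend removed they were -0.056 for FGFR3, -0.0099 for EPHB4 and 0.0045 for SPRED2, and with HEB KO library 1 left out as well -0.0012 for FGFR1, -0.40 for FGFR3, 0.24 for DHX8, 0.61 for FGF13, 0.18 for PTPN11, 0.16 for NRAS, 0.012 for PEBP1, -0.29 for IL17RD, 0.14 for MYC and -0.0030 for EPHB4. Over single libraries left out the range was -0.13 to 0.69 for FGFR1, -0.26 to 0.24 for FGFR2, -0.12 to 0.62 for FGFR3, -0.45 to 0.22 for SPRY4, -0.30 to 0.18 for ETV4, -0.19 to 0.029 for DHX8, -0.38 to 0.22 for FGF13, -0.72 to 0.0015 for FGF11, -0.80 to 0.010 for GPC4, -0.068 to 0.50 for SDC2, -0.72 to 0.10 for PEBP1, -0.54 to 0.44 for IL17RD, -0.24 to 0.021 for IER2, -0.46 to 0.21 for MYC, -0.068 to 0.36 for TYRO3 and -0.53 to 0.16 for SPRED2.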
